A study of Homo sapiens with 9 samples.

Results

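The 3 libraries of hairpin shRPL6-2 were set against the 3 libraries of hairpin shRPL6-1, gene by gene. These are 6 of the 9 libraries of the series, chosen by their labels alone, and 16146 of the 60683 genes in the count table had enough counts to be tested. The cells were MHCC97H, an established human hepatocellular carcinoma (HCC) line with high metastatic capacity, and poly-A RNA was sequenced to find transcripts that depend on RPL6, a protein of the large ribosomal subunit. Both hairpin groups carried a short hairpin RNA against RPL6 mRNA, and the third group, shCont, carried a control hairpin. The groups shared the cell line and had no other treatment in the labels. The study's methods describe lentiviral hairpins, whereas its list of oligonucleotides gives each RPL6 sequence as a pair of 19-base strands with TT overhangs. Which of these forms the sequenced cells received, and how long after delivery they were harvested, is not given in the sources used here. Whether the libraries of 1 hairpin stem from different cultures is not stated in any source, so each p-value refers to the variation among these particular libraries, part of which may be technical.

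A short hairpin RNA is cut by Dicer into a duplex, and 1 strand, the guide, is loaded into an Argonaute protein while the passenger strand is discarded. A guide that pairs along its whole length lets Argonaute cut the mRNA. The same guide can also act as a microRNA does, pairing through its seed (bases 2 to 8) with short matches in the 3′ untranslated region (3′ UTR) of other mRNAs, which are then destabilised to a lesser degree. Transcripts that follow the loss of the target should move with either hairpin, whereas transcripts that follow a guide's own pairing are particular to 1 sequence. The direct comparison of hairpins against a common target asks which transcripts differ between them. These can include the latter class, but differences between the groups in RPL6 depletion, culture or library composition cannot be told apart from it by this comparison. The control hairpin gives no value to the difference itself, but its libraries enter the estimate of the spread and so the calls.

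The strands are shown because the comparison below turns on their seeds, which stand in capitals. The antisense strand of each pair was taken as the guide, and all are written 5′ to 3′ without the overhang. The seeds assume that the loaded strands begin at the listed 5′ ends, which was not tested.

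shRPL6-1 guide: uUUGCGAAguuuaaccacc

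shRPL6-1 passenger: gGUGGUUAaacuucgcaaa

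shRPL6-2 guide: uAAUAAGCcacuagccagc

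shRPL6-2 passenger: gCUGGCUAguggcuuauua

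Both targets lie in the coding sequence of RPL6 (transcript ENST00000424576.6, minus strand of chromosome 12, GRCh38). The shRPL6-1 target is in exon 3 of 7 at chr12:112408243-112408261, which is bases 315 to 333 of the 867-base coding sequence, and the shRPL6-2 target is in exon 5 at chr12:112406304-112406322, bases 501 to 519. The seed of the shRPL6-1 guide pairs with TTCGCAA, a 7-base word with 1 CpG, and that of the shRPL6-2 guide pairs with GCTTATT, which has none. Of 2370 human mature miRNAs (RefSeq), none had the seed of either guide, and hsa-miR-4794 and hsa-miR-664a-5p had the seed of the shRPL6-2 passenger.

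Total counts in the 6 hairpin libraries ran from 13638468 to 16149480. Measured as the root mean square of log2 differences over all tested genes, shRPL6-1 and shRPL6-2 libraries lay 0.53 to 0.80 apart, against 0.50 to 0.60 within shRPL6-1 and 0.56 to 0.71 within shRPL6-2, so that the distance between hairpins overlapped the distance between libraries of 1 hairpin. Ribosomal protein genes took 5.28% ± 0.193 of counts with shRPL6-1 and 6.28% ± 0.553 with shRPL6-2 (mean ± SD, n = 3 each, two-sided exact permutation p = 0.1, the smallest that 3 against 3 allow). The rank correlation of a library's deviation with transcript GC content was −0.11 to 0.28 with shRPL6-1 and 0.11 to 0.60 with shRPL6-2 (exact permutation p = 0.2). The medians of all gene lists with a correction for GC content therefore stand in the plot of gene lists. Values corrected for GC content, or for GC content and transcript length, are also given for some lists, the guide seeds and named genes whose call a correction ended. Of 8 hepatocyte markers, 1 (HNF4A) passed the filter on low counts, ALB had 0 counts in all 9 libraries, and the summed level of the list was 5.18 to 11.2 CPM (counts scaled to library size) with shRPL6-1 and 8.70 to 12 CPM with shRPL6-2, so that the hepatic identity of the line rests on few of its usual markers. Of 6 fibroblast, 4 endothelial and 6 leukocyte markers 2 each were tested and none was called between the hairpins. Fibroblast markers summed to 58.5 to 62.3 CPM with shRPL6-1 and 60.4 to 66.4 with shRPL6-2, nearly all of it COL1A1, and KDR, CD3D and CD3E were at 0 in all 9 libraries. Endothelial markers summed to 27.2 to 30.6 and 18.7 to 22.3 CPM, mostly CDH5, and leukocyte markers to 1.36 to 2.44 and 2.16 to 3.51 CPM. The part of these levels in the results was not tested.

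RPL6 itself did not separate the hairpins. Its scaled level was 13.6, 12.9 and 15.8 CPM in shRPL6-1 replicates 1, 2 and 3 and 12.3, 11.7 and 21.4 CPM in shRPL6-2 replicates 1, 2 and 3, against 499.5, 518 and 478 CPM in the shCont libraries. The ranges of the hairpin groups overlapped, and every hairpin library was far below every shCont library. The log2 difference, shRPL6-2 minus shRPL6-1, was 0.10 (SE 0.22, 95% interval −0.39 to 0.59, adjusted p = 0.878). Here and for every gene below, the adjusted p comes from the quasi-likelihood F test of edgeR and the Benjamini-Hochberg method. The sign rested on shRPL6-2 replicate 3, without which the difference was −0.23. Since the interval spans differences in both directions, equal depletion was not shown. The RPL6 pseudogenes RPL6P27, AC115223.1 and AC009245.1, whose reads cannot be told apart from those of RPL6 with certainty, differed by −0.03, 0.03 and 0.12 (adjusted p = 0.968, 0.969 and 0.908).

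Between the hairpins, 11 genes were higher and 51 lower with shRPL6-2 at an adjusted p under 0.05, which is 0.384% of the genes tested (0.0681% higher and 0.316% lower). For comparison, 8.51% of genes were called for shRPL6-1 against shCont (4.44% higher and 4.07% lower) and 27.9% for shRPL6-2 against shCont (13.3% higher and 14.6% lower). At an unadjusted p under 0.05, 10.9% of genes passed between the hairpins, and with a log2 difference beyond 1 as well, 116 genes were higher (0.718%) and 232 lower (1.44%). The called genes comprised 56 protein-coding genes, 5 processed pseudogenes and 1 long noncoding RNA, and in all 62 of them the hairpin groups did not overlap, as they did not in 20.6% of all genes tested. The 62 log2 differences kept their sign under every alternative fit, but the calls themselves were less firm. Without shRPL6-1 replicate 1, 2 or 3 in turn 14, 13 and 10 of the 62 were still called, without shRPL6-2 replicate 1, 2 or 3 it was 7, 13 and 31, and without shCont replicate 1, 2 or 3, which enter through the shared estimate of the spread, it was 29, 25 and 62. CLDN1, TYMS, PLRG1, RPS24, NID1 and CNN3 were called whichever library was left out.

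**Figure D1:**
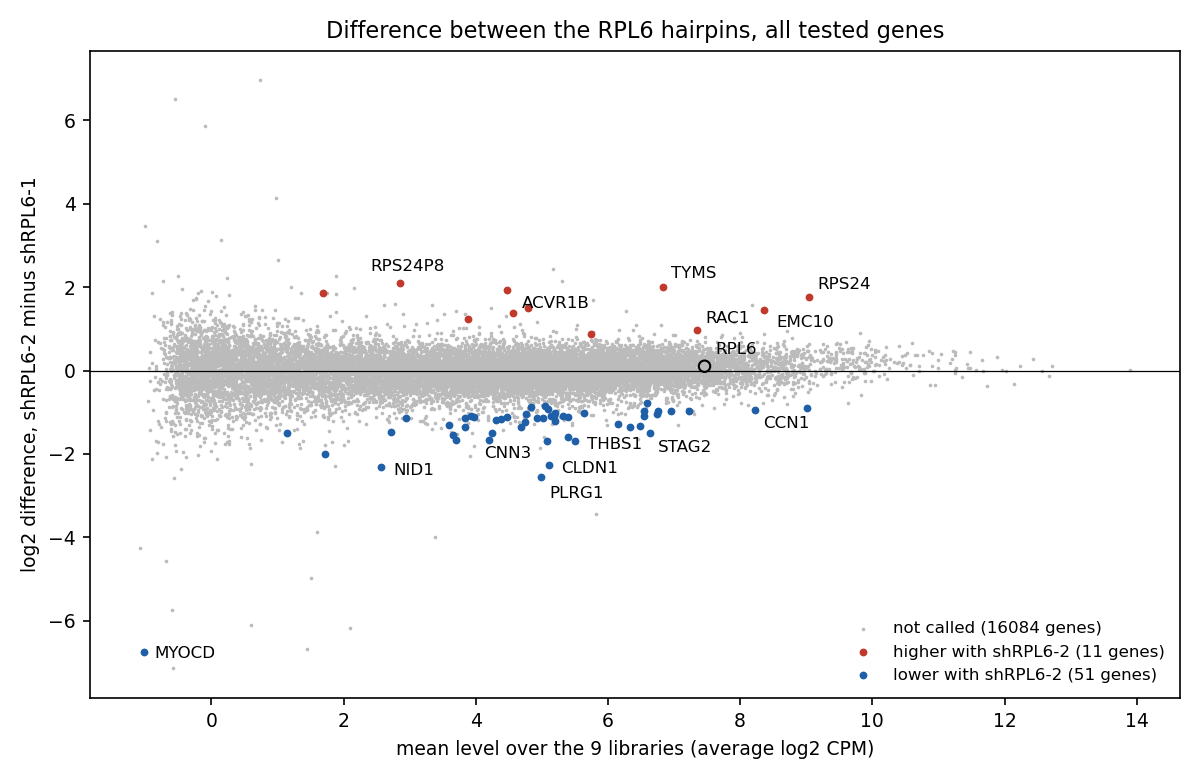
Log2 difference between the hairpins (shRPL6-2 minus shRPL6-1, vertical axis) against the mean level over 9 libraries (average log2 CPM, horizontal axis), 1 point per tested gene. The 11 called genes above 0 are red, the 51 below 0 blue, and RPL6 (open circle) lies at 0.10.

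The genes higher with shRPL6-2 were in the main genes that were low with shRPL6-1 and close to the control with shRPL6-2. TYMS, thymidylate synthase, which makes the thymidine nucleotide for DNA synthesis, stood at 35.7, 34.6 and 44.9 CPM with shRPL6-1 and at 173, 136 and 155 CPM with shRPL6-2, beside 162, 144 and 136 CPM in shCont. All shRPL6-2 and shCont libraries were thus above all shRPL6-1 libraries. The log2 difference was 2.01 (SE 0.17, adjusted p = 0.00116), a 4.03-fold higher mean. Against shCont, with which both comparisons share their controls, TYMS changed by −1.94 with shRPL6-1 (adjusted p = 0.000547) and by 0.07 with shRPL6-2 (adjusted p = 0.761). None of the other 35 tested members of the DNA replication and S phase list was called between the hairpins, and the median of the list was 0.02, against −0.01 over all genes tested.

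RPS24, a protein of the small ribosomal subunit, showed the same order. Its level was 226, 156 and 218 CPM with shRPL6-1, 695, 655 and 675 CPM with shRPL6-2 and 702, 662 and 763 CPM in shCont. The difference of 1.75 (SE 0.17, adjusted p = 0.00213) was a 3.37-fold higher mean with shRPL6-2. None of the other 31 small-subunit and 46 large-subunit proteins tested was called, and they ranged from −0.15 (RPL9) to 0.68 (RPS19). The processed pseudogenes RPS24P8 (2.09, adjusted p = 0.00948), AL009174.1 (1.93, adjusted p = 0.00932) and AC007182.2 (1.85, adjusted p = 0.0429) were called in the same direction. Of their 31-base words 34.4%, 37.6% and 20.4% also occur in RPS24 transcripts, so their reads and those of RPS24 may be split uncertainly, although they stand among the 11.

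ACVR1B, a type I receptor for activins, stood at 9.20, 9.0 and 11.5 CPM with shRPL6-1, 24.3, 28.1 and 25.6 CPM with shRPL6-2 and 34.4, 32.2 and 38.1 CPM in shCont. The 3 groups did not overlap, and the difference between hairpins was 1.39 (SE 0.17, adjusted p = 0.00932). RAC1, a small GTPase of the actin cytoskeleton, differed less, with 103 ± 5.26 CPM for shRPL6-1 and 204 ± 27.7 CPM for shRPL6-2 (mean ± SD, n = 3, log2 difference 0.98, SE 0.15, adjusted p = 0.0261). Its pseudogene RAC1P2, which shares 81.2% of its 31-base words with RAC1, differed by 1.5 (adjusted p = 0.00932). EMC10, a subunit of the complex that inserts proteins into the endoplasmic reticulum membrane, was on both sides of the control, at 206, 170 and 174 CPM with shRPL6-1, 478, 625 and 405 CPM with shRPL6-2 and 318, 313 and 252 CPM in shCont (difference 1.45, SE 0.19, adjusted p = 0.0118). FAAP24, which anchors the Fanconi anaemia core complex to DNA (1.23, adjusted p = 0.0158), and TIMMDC1, an assembly factor of respiratory complex I (0.88, adjusted p = 0.0269), complete the 7 protein-coding genes in this direction. Of these 7, TYMS and RPS24 kept their call whichever library was left out, and the largest adjusted p of the other 5 with 1 library left out was 0.0575 for ACVR1B, 0.111 for EMC10, 0.111 for FAAP24, 0.193 for RAC1 and 0.207 for TIMMDC1. With the correction for GC content and length the call of RAC1 was lost (adjusted p = 0.134).

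**Figure D2:**
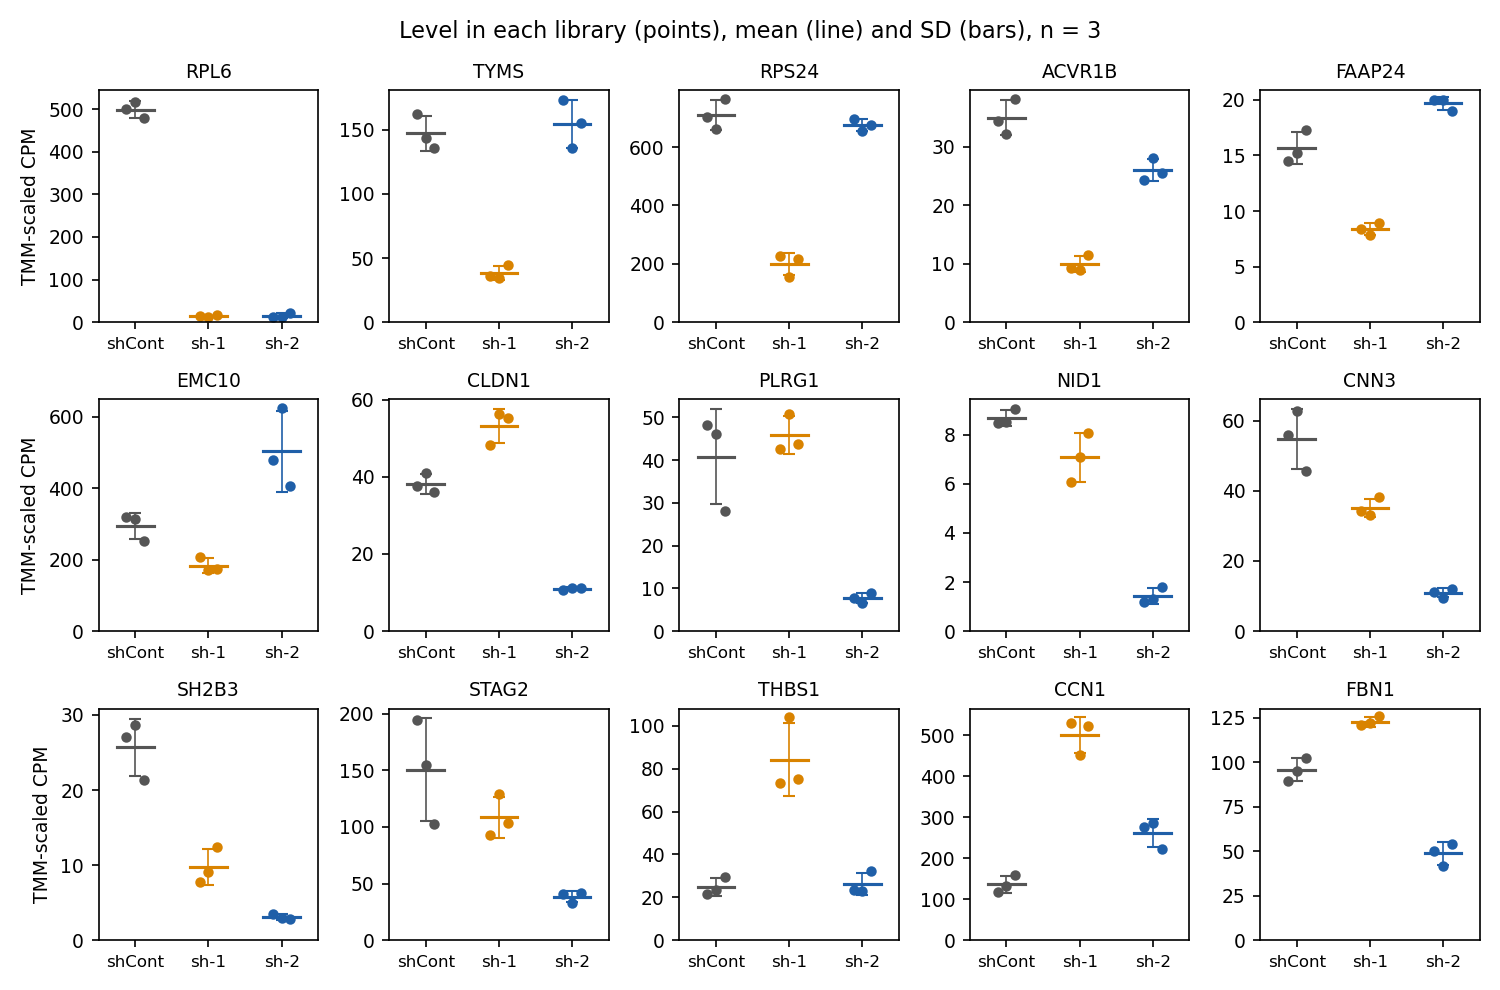
TMM-scaled CPM (vertical axes, from 0) of 15 genes in each library of shCont, shRPL6-1 (sh-1) and shRPL6-2 (sh-2), with the mean (line) and SD (bars, n = 3). RPL6 is low with both hairpins, TYMS and RPS24 are low only in the shRPL6-1 libraries, CLDN1, PLRG1 and NID1 are low only in the shRPL6-2 libraries, and THBS1 is high only in the shRPL6-1 libraries.

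In the other direction the genes were mostly low with shRPL6-2. CLDN1, the tight junction protein claudin-1, stood at 48.2, 56.4 and 55.2 CPM with shRPL6-1, 10.7, 11.3 and 11.2 CPM with shRPL6-2 and 37.6, 40.9 and 35.9 CPM in shCont. Every shRPL6-2 library was below every other library, and the difference of −2.27 (SE 0.15, adjusted p = 0.000251) had the smallest p of all genes, with 20.8% of the shRPL6-1 level left. PLRG1, a core protein of the spliceosome's PRP19 complex, stood at 42.6, 50.8 and 43.9 CPM with shRPL6-1 and at 7.66, 6.61 and 9.0 CPM with shRPL6-2, beside 48.3, 46.1 and 28.1 CPM in shCont (difference −2.56, SE 0.23, adjusted p = 0.0018). NID1, nidogen-1, which links laminin and collagen IV in basement membranes, was less abundant, at 6.07, 7.09 and 8.08 CPM against 1.18, 1.31 and 1.8 CPM (−2.30, SE 0.24, adjusted p = 0.00389), with 8.46, 8.51 and 9.04 CPM in shCont. CNN3, the actin-binding protein calponin-3, stood at 34.4, 33.1 and 38.1 CPM with shRPL6-1 and 11.3, 9.47 and 12 CPM with shRPL6-2 (−1.69, SE 0.18, adjusted p = 0.00389), both below the 55.8, 62.8 and 45.6 CPM of shCont.

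Further genes of this group are regulators of signalling. SH2B3, an adaptor that dampens cytokine receptor signalling, went down in steps, from 27.1, 28.6 and 21.3 CPM in shCont to 7.76, 9.06 and 12.4 CPM with shRPL6-1 and 3.48, 2.94 and 2.77 CPM with shRPL6-2. ERRFI1, an inhibitor of the epidermal growth factor receptor, differed by −1.5 (adjusted p = 0.0169), UBASH3B, a phosphatase that acts on tyrosine kinases, by −1.36 (adjusted p = 0.00484), and SPRED1, an inhibitor of RAS signalling, by −1.15 (adjusted p = 0.0272). UBASH3B was 34.8, 39.5 and 40.8 CPM with shRPL6-1 and 14.3, 14.6 and 16.0 CPM with shRPL6-2, on either side of the 22.7, 23.1 and 23.7 CPM of shCont, and its adjusted p was 0.053 without shRPL6-2 replicate 1. Genes of transcription and chromatin formed another part. They were RNF20, which ubiquitinates histone H2B (−1.60, adjusted p = 0.0331), the transcription factor ZBTB1 (−1.66, adjusted p = 0.0167), the cohesin subunit STAG2 (−1.5, adjusted p = 0.0265), the elongation factor ELL2 (−1.27, adjusted p = 0.023), the Mediator subunit MED6 (−1.16, adjusted p = 0.0169) and TFDP1, the partner of E2F factors (−0.96, adjusted p = 0.0261). TMEM65, a protein of the mitochondrial inner membrane, differed by −1.54 (adjusted p = 0.0265), and PSG4, a pregnancy-specific glycoprotein, by −1.99 (adjusted p = 0.0269). This grouping of called genes by role was made after their values were seen.

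Secreted matrix proteins were also among the lower genes, and THBS1 and CCN1 were highest with shRPL6-1. THBS1, the matrix glycoprotein thrombospondin-1, stood at 73.3, 104 and 75.4 CPM with shRPL6-1, 23.6, 22.8 and 32.2 CPM with shRPL6-2 and 21.3, 23.5 and 29.3 CPM in shCont. It therefore differed by −1.68 between the hairpins (SE 0.21, adjusted p = 0.00972) and by 1.77 for shRPL6-1 against shCont (adjusted p = 0.00428), with 0.08 for shRPL6-2 (adjusted p = 0.786). Without shRPL6-2 replicate 1 or replicate 2 its call was lost (adjusted p up to 0.0754). CCN1, a matricellular protein and target of growth factor signalling, was above shCont with both hairpins, at 529, 451 and 522 CPM with shRPL6-1 and 275, 285 and 223 CPM with shRPL6-2, against 117, 131 and 159 CPM (difference between hairpins −0.94, adjusted p = 0.0467). FBN1, fibrillin-1, stood at 121, 122 and 126 CPM with shRPL6-1, 50.1, 42.0 and 54.3 CPM with shRPL6-2 and 89.6, 95.2 and 103 CPM in shCont, so that the 3 groups did not overlap (−1.33, SE 0.15, adjusted p = 0.00484). Without shRPL6-2 replicate 1 its adjusted p was 0.0524. MYOCD, a muscle transcription factor, had 41 counts over the 3 shRPL6-1 libraries, 0 over the 3 shRPL6-2 libraries and 6 in shCont, so that it was at least 12-fold higher with shRPL6-1 than with shRPL6-2 (against a floor of 3 counts over the group).

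Each hairpin's own change from shCont was taken for these genes, with the caution that both use the same 3 shCont libraries and that the genes were selected by the difference. Of the 7 protein-coding genes higher with shRPL6-2, 6 were called for shRPL6-1 against shCont and 2 for shRPL6-2, beside 8.51% and 27.9% of all genes tested. Their median change was −0.90 with shRPL6-1, ranging from −1.94 to −0.35, and 0.17 with shRPL6-2, ranging from −0.43 to 0.77. With the 4 pseudogenes, 10 of 11 were called for shRPL6-1 and the median was −1.63. Of the 51 lower genes, 14 were called for shRPL6-1 against shCont and 44 for shRPL6-2. Their median change was 0.05 with shRPL6-1, with a range from −1.40 to 2.72, and −1.14 with shRPL6-2, with a range from −4.02 to 0.94.

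The seeds of the guides were then searched in 3′ UTRs. The words TTCGCAA and GCTTATT were counted in the 3′ UTR of 1 representative GENCODE 29 transcript of each of 12749 tested protein-coding genes. GCTTATT stood at least 1 time in 11.3% of these 3′ UTRs (1437 genes), and TTCGCAA in 1.04% (133 genes). Of the 48 genes called lower with shRPL6-2 that had such a 3′ UTR, 28 (58.3%, 95% Wilson interval 44.3% to 71.2%, which covers counting error only) held GCTTATT, whereas 0 of the 7 called higher did. Of those 7 genes, 3 (RPS24, FAAP24 and TIMMDC1) held TTCGCAA, and 0 of the 48 lower genes did. With an A opposite the first base of the guide, which makes an 8-base match, GCTTATTA was in 29.2% of the 48 lower genes against 2.49% of all 12749. These called genes also had their own length and base composition, and the comparison within length classes follows below.

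Sites of called genes are shown as the 19 bases that lie opposite the guide, with the seed match in capitals and coordinates of the 7-base match on GRCh38. RPS24, FAAP24 and TIMMDC1 are all the called genes with a TTCGCAA in the 3′ UTR searched. CLDN1, NID1 and CNN3 are those with a GCTTATT whose call held whichever library was left out, and SH2B3 is shown for its 3 sites.

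RPS24, shRPL6-1, chr10:78040666-78040672: actgtggatttTTCGCAAg

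FAAP24, shRPL6-1, chr19:32977230-32977236: ctggtgggatcTTCGCAAg

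TIMMDC1, shRPL6-1, chr3:119524051-119524057: aaataaaacatTTCGCAAa

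CLDN1, shRPL6-2, chr3:190306582-190306588: ggctgctgtaaGCTTATTg

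NID1, shRPL6-2, chr1:235975925-235975931: ccactgaaggtGCTTATTa

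CNN3 site 1, shRPL6-2, chr1:94897633-94897639: aacactattaaGCTTATTg

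CNN3 site 2, shRPL6-2, chr1:94897322-94897328: actaaactcatGCTTATTg

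SH2B3 site 1, shRPL6-2, chr12:111448924-111448930: acttaaccactGCTTATTt

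SH2B3 site 2, shRPL6-2, chr12:111449339-111449345: agcatctaatgGCTTATTa

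SH2B3 site 3, shRPL6-2, chr12:111450423-111450429: taaaggagaaaGCTTATTa

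Beyond the seed these sites paired little, with 7 to 13 of the 19 bases paired in all. The RPS24 site began 40 bases after the stop codon in a 3′ UTR of 90 bases, and the CLDN1 site 1689 bases after it in a 3′ UTR of 2576 bases. SH2B3 and TMEM65 each held 3 matches to the shRPL6-2 guide seed, the most among the called genes, and CNN3, UBASH3B and TFDP1 each held 2, as did STAG2, CCDC68, SPRED1 and IPPK. TYMS, ACVR1B, RAC1 and EMC10 had no TTCGCAA in the 3′ UTR searched, and PLRG1, RNF20 and ZBTB1 had no GCTTATT, which says only that these letters are not in that window.

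The shift was not confined to called genes. For the shRPL6-2 guide, the median log2 difference was 0.00 in the 11312 genes with no GCTTATT, −0.26 in the 1186 with 1 match, −0.39 in the 201 with 2 and −0.36 in the 50 with 3 or more. Of these classes 49.9%, 77.4%, 89.1% and 88.0% of genes lay below 0. The share of genes called lower was 0.177%, 1.60%, 3.48% and 4.0%. For the shRPL6-1 guide the median was −0.03 in the 12616 genes with no TTCGCAA and 0.10 in the 132 with 1 match, of which 2.27% were called higher and 0% lower. Between the hairpins, each sequence thus had its carriers lower in the libraries of the matching hairpin. Measured from shCont, the median of carriers with 1 match was below 0 under either hairpin. Genes with 1 TTCGCAA had median changes of −0.21 for shRPL6-1 and −0.22 for shRPL6-2, where genes with none had −0.03 and −0.06. The carrier medians alone were thus no lower under the matching hairpin, while genes with none also lay lower with shRPL6-2. Genes with 1 GCTTATT had −0.20 for shRPL6-1 and −0.48 for shRPL6-2, and genes with none −0.01 for each.

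**Figure D3:**
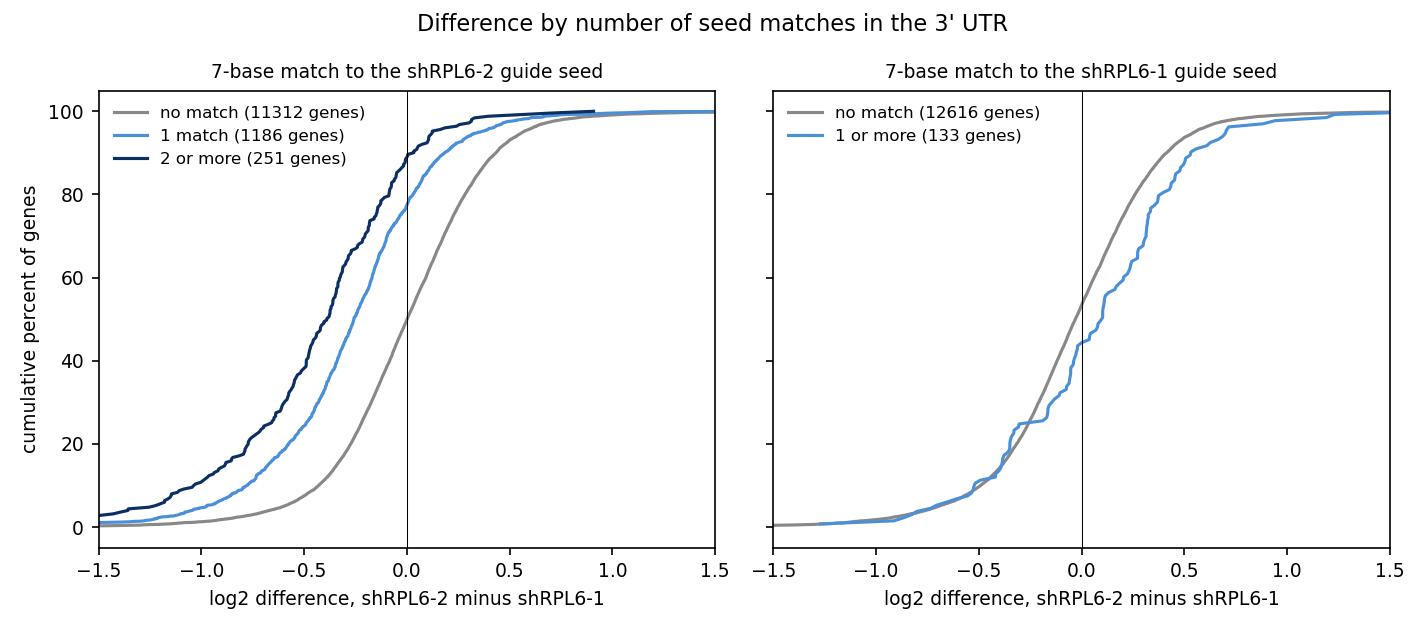
Cumulative percent of genes (vertical axis) against the log2 difference, shRPL6-2 minus shRPL6-1 (horizontal axis, drawn from −1.5 to 1.5), for genes grouped by 7-base matches to the shRPL6-2 guide seed (left) and the shRPL6-1 guide seed (right) in the 3′ UTR. The curve of the 1186 genes with 1 GCTTATT lies left of that of the 11312 with none, and the curve of the 133 genes with TTCGCAA lies mostly right of that of the 12616 with none.

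Genes with a match had longer and more AU-rich transcripts, and these properties also moved with the libraries. The median 3′ UTR was 928 bases in genes with no GCTTATT and 2711, 4849 and 6854 bases with 1, 2 and 3 or more, and the median GC content of the transcript fell from 50.9% to 42.8%, 40.6% and 39.5%. The genes were therefore split by 3′ UTR length into 4 classes of nearly equal size (2 to 427, 428 to 1083, 1084 to 2363 and 2364 to 32870 bases). From the shortest class to the longest, the median difference with and without GCTTATT was −0.19 against 0.11 (42 genes with a match), −0.23 against 0.03 (147 genes), −0.31 against −0.04 (364 genes) and −0.28 against −0.11 (884 genes). For TTCGCAA the values were 0.53 against 0.10 (7 genes), 0.16 against 0.02 (13 genes), 0.28 against −0.07 (27 genes) and −0.02 against −0.15 (86 genes). In each class the carriers of a word, relative to genes without it, were lower with the hairpin whose seed pairs with it than with the other hairpin. Of the TTCGCAA series, 2 classes held under 20 genes. The median changes from shCont were again uncorrected. For shRPL6-1 they were, with and without TTCGCAA, −0.11 against 0.15, −0.41 against 0.02, −0.27 against −0.10 and −0.21 against −0.20. For shRPL6-2 they were 0.59 against 0.25, −0.14 against 0.05, −0.12 against −0.17 and −0.24 against −0.37. In the longest class the gap between the hairpins thus lay in the shRPL6-2 values. Over all lengths, the median with a match minus the median without was −0.28 for the shRPL6-2 guide, −0.17 after correction for GC content and −0.12 after correction for GC content and length. For the shRPL6-1 guide it was 0.13, and 0.16 and 0.20 after these corrections. The corrections thus made the first value smaller and the second larger, and neither sign changed.

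The same measure was taken in each library, as the median deviation from the mean of all 9 libraries in genes with a match minus that in genes with none. For GCTTATT it ran from −0.05 to 0.09 in the shRPL6-1 libraries and from −0.44 to −0.14 in the shRPL6-2 libraries, which did not overlap. In shCont it ran from 0.02 to 0.38, so that the control libraries spread at least as widely as those of either hairpin. For TTCGCAA it ran from −0.11 to −0.08 with shRPL6-1, −0.06 to 0.10 with shRPL6-2 and 0.01 to 0.21 in shCont, and the shRPL6-1 libraries were the 3 lowest of the 9. The passenger strands gave overlapping hairpin groups. TAACCAC, the word for the shRPL6-1 passenger, gave −0.08 to 0.06 with shRPL6-1 and −0.30 to −0.00026 with shRPL6-2, and TAGCCAG, that for the shRPL6-2 passenger, gave −0.04 to 0.01 and −0.17 to 0.0047. Over all lengths the median difference between hairpins was −0.16 in genes with 1 TAACCAC and −0.02 in genes with none, a gap about as wide as that of the shRPL6-1 guide but towards lower levels with shRPL6-2, the hairpin whose strands do not include this seed. In the 4 classes of 3′ UTR length, from the shortest, it was −0.09 with TAACCAC against 0.10 without, −0.03 against 0.02, −0.13 against −0.06 and −0.17 against −0.14. With and without TAGCCAG it was 0.18 against 0.10, 0.02 against 0.02, −0.0076 against −0.07 and −0.14 against −0.16. Of the 48 lower genes 10 (20.8%) held TAACCAC and 3 (6.25%) held TAGCCAG, against 7.00% and 13.5% of all 12749 genes.

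**Figure D4:**
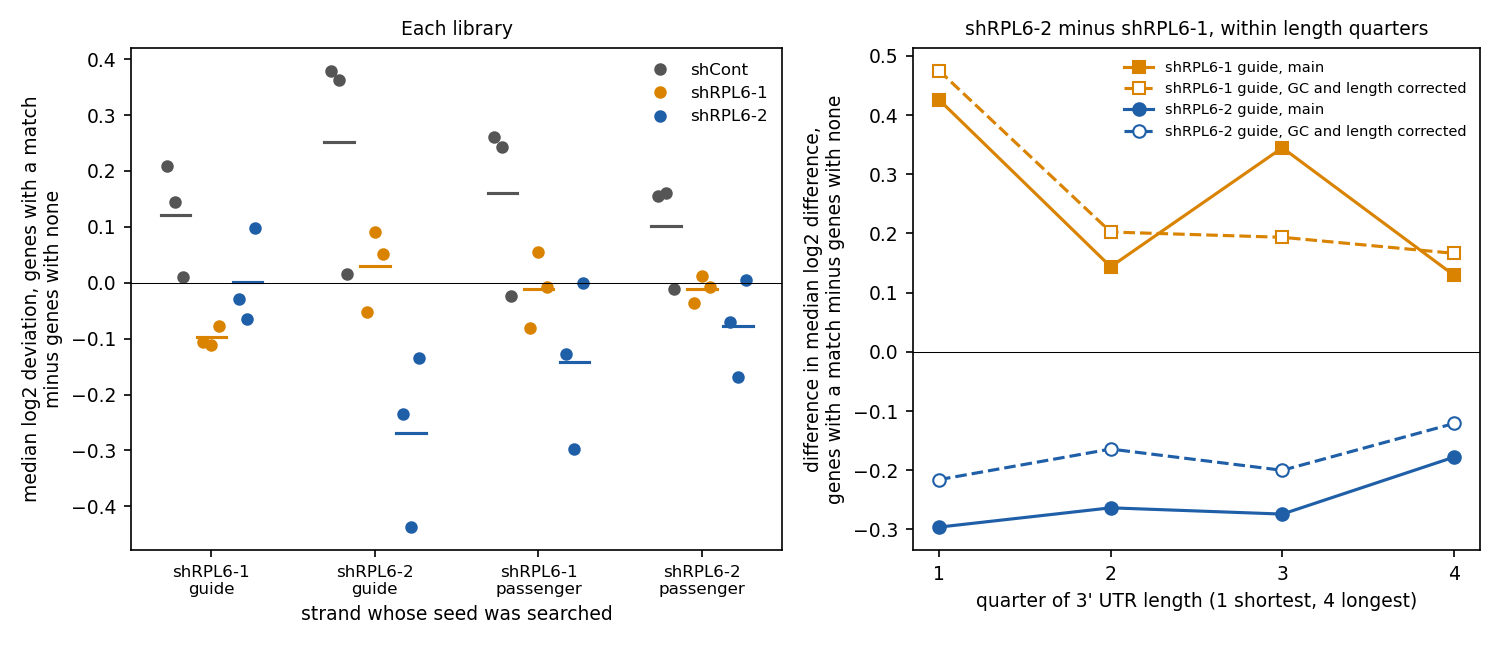
Left, for each of 9 libraries (points, with group means as lines), the median log2 deviation of genes with a 3′ UTR match minus that of genes with none, for the seed of each of 4 strands. Right, the difference in median log2 difference (shRPL6-2 minus shRPL6-1) between genes with and without a match within 4 classes of 3′ UTR length, uncorrected (filled) and corrected for GC content and length (open), where the shRPL6-2 guide lies below 0 and the shRPL6-1 guide above 0 in all 4.

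Longer pairing was searched in all 206534 GENCODE 29 transcripts. With at most 2 mismatches to 19 bases of a strand, the tested genes were RPL6, its pseudogenes RPL6P27, AC115223.1 and AC009245.1, and PRPF18, a splicing factor that meets the shRPL6-2 passenger with 2 mismatches and differed by −0.36 (adjusted p = 0.6). With 3 mismatches, 6 genes met the shRPL6-1 guide and ranged from −0.24 (CTNNB1) to 0.49 (TRAPPC5). Another 4 met the shRPL6-2 guide and ranged from −0.85 (ADPRS) to 0.05 (PRPSAP1). None of these 10 was called, nor was any of the 12 genes that met a passenger strand with 3 mismatches (smallest adjusted p = 0.157, for MYLK). With 4 mismatches, a limit chosen after the values were seen, 59 tested genes met the shRPL6-1 guide and 58 the shRPL6-2 guide. Their medians were −0.10 and −0.13, and 1 of them was called, beside 0.384% of all genes tested. This was PLRG1, whose coding sequence holds the stretch below at chr4:154540908-154540926 (minus strand). Mismatches to the shRPL6-2 target are in capitals, and 11 bases in a row pair with the guide. Some of the mismatches lie opposite the guide's seed, so the seed match was not intact. The stretch is shown because PLRG1, which has no seed match in its 3′ UTR, had the lowest difference of all called genes other than MYOCD.

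PLRG1, shRPL6-2: CTtggctagtggcAAatta

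The lists of pathways and cell functions held few called genes, and their medians are given beside that of all genes tested (−0.01). The list of integrins, laminins and collagens had the lowest median, −0.41 over 37 tested members, of which 31 lay below 0, 12 passed an unadjusted p under 0.05 and none was called. Its collagen IV chain COL4A1 was 416 CPM with shRPL6-1 and 234 CPM with shRPL6-2 (−0.83, adjusted p = 0.24). The median was −0.39 with the GC correction and −0.28 with GC and length. With the GC correction 6 members were called lower, among them COL4A1, COL4A2, LAMA1 and ITGB4, where 1.01% of all genes were (0.263% higher). Of these, COL4A2 differed by −0.79, LAMA1, a laminin chain, by −0.77 and ITGB4, an integrin of hemidesmosomes, by −0.57 in the uncorrected fit. The TGF-beta list had a median of −0.38 over 26 members, 23 of them below 0, with CCN1 called, and 4 were called lower with the GC correction. For NF-kB and inflammatory genes the median was −0.35 over 25 members (−0.48 with the GC correction), with CXCL8 at −1.39 (adjusted p = 0.267) and none called, or 2 lower with the GC correction. For HIF-1 targets outside glycolysis it was −0.34 over 22 members, of which 19 lay below 0 and none was called, or 1 lower with the GC correction. Among junction genes CLDN1 was the 1 called of 23 (median −0.28, or −0.14 with GC and −0.10 with GC and length). Among focal adhesion and actin genes CNN3 was the 1 called of 27 (median −0.19, or −0.28 with GC and −0.25 with GC and length). With the GC correction CGN, a tight junction protein, was called lower and CNN2, another calponin, higher as well.

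At the other end stood short housekeeping transcripts. Nuclear-encoded respiratory chain subunits had a median of 0.35 over 74 members, 67 of them above 0 and none called, with UQCRH, a subunit of complex III, at 329 CPM with shRPL6-1 and 535 CPM with shRPL6-2 (0.70, adjusted p = 0.092). With the GC correction UQCRH and ATP5MC1, a subunit of ATP synthase, were called higher. Ribosomal proteins had medians of 0.28 (large subunit, 41 of 46 above 0) and 0.29 (small subunit, 27 of 32 above 0). With the correction for GC content and length these 3 medians were 0.21, 0.18 and 0.15, and the share of counts taken by ribosomal proteins moved in the same direction, as given above. The part of library composition in these medians was not tested. The list of double-stranded RNA sensors and interferon-stimulated genes, which respond to foreign RNA, had a median of −0.03 over 36 members, none of which passed even an unadjusted p under 0.05. Its median change from shCont was 0.77 with shRPL6-1 and 0.70 with shRPL6-2. The genes of RNA interference had a median of −0.22 over 13 members (−0.07 with the GC correction), with AGO2, the Argonaute that cuts, at 91.3 and 60.2 CPM (−0.60, adjusted p = 0.427), and none was called.

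**Figure D5:**
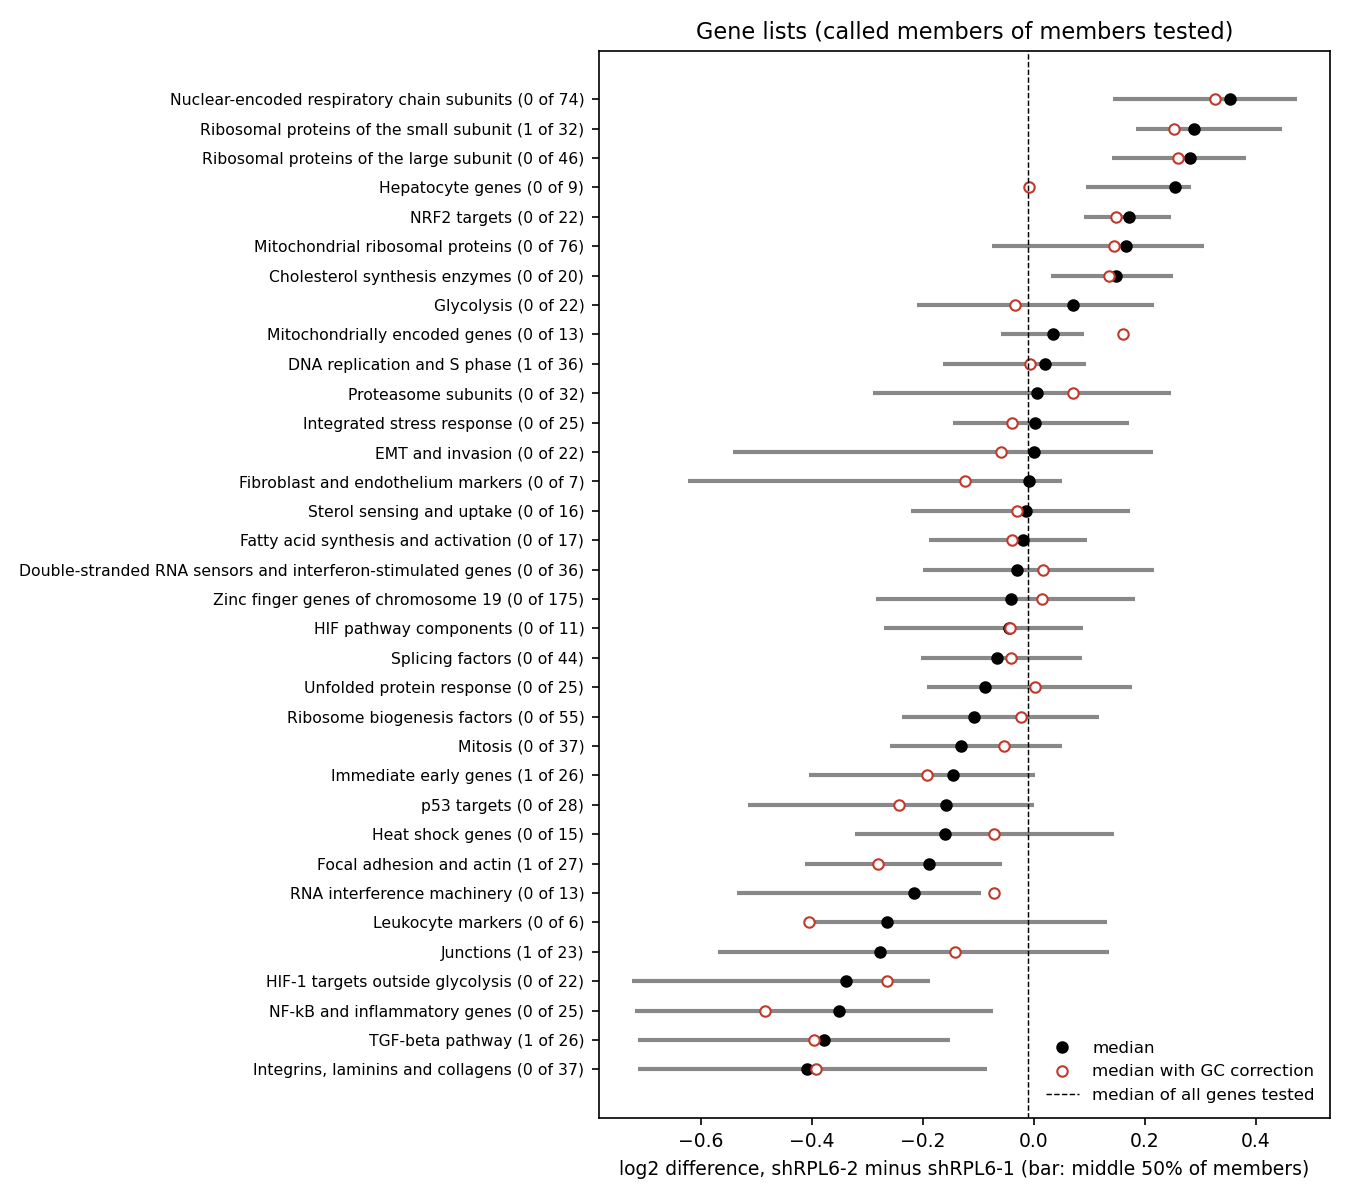
Median log2 difference (shRPL6-2 minus shRPL6-1, horizontal axis) of each of 34 gene lists (filled points), the middle 50% of its members (bars) and the median with the GC correction (open points), with the called members of those tested in brackets. Integrins, laminins and collagens lie lowest at −0.41 and respiratory chain subunits highest at 0.35, beside −0.01 over all genes tested (dashed line).

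The genes on which the study centred did not separate the hairpins. HMGCS1, the synthase of the first committed step towards mevalonate, stood at 62.6, 63.6 and 70.2 CPM with shRPL6-1 and 78.7, 59.9 and 72.8 CPM with shRPL6-2, against 197, 205 and 102 CPM in shCont. The hairpin groups overlapped, and the difference was 0.11 (SE 0.24, 95% interval −0.42 to 0.64, adjusted p = 0.881). HIF1A, the oxygen-regulated subunit of HIF-1, was 89.7, 122 and 95.9 CPM and 88.2, 64.3 and 91.2 CPM (−0.34, 95% interval −0.83 to 0.16, adjusted p = 0.601). SREBF2, the transcription factor of sterol synthesis, was 193, 193 and 183 CPM and 205, 219 and 218 CPM, which did not overlap, but the difference of 0.17 was not called (95% interval −0.11 to 0.45, adjusted p = 0.636). Cholesterol synthesis enzymes had a median of 0.15 over 20 members, with none called.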

How the data were processed

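Poly-A RNA of MHCC97H cells was sequenced by the authors, 3 libraries each of shCont, shRPL6-1 and shRPL6-2, grouped by sample title. The submitters' processing notes list CASAVA 1.8, HISAT2, StringTie, edgeR and the build GRCh38. No source used here gives the counting program or its use of strand, so overlapping genes and near-identical copies are uncertain. The deposited table holds whole-number counts per gene, which were tested here, and FPKM, which were not used. All columns of per-sample values were matched to 1 library each.

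The members and the 34 gene lists were chosen with earlier results of these data known. The tests used edgeR 4.0.16 (R 4.3.3). After filterByExpr 16146 genes remained, with 99.8% of counts. TMM factors scaled the libraries, and the quasi-likelihood fit had 1 term per group and took in all 9 libraries, which thus share their estimate of the spread (common BCV, the biological coefficient of variation, 0.239). P-values are two-sided, with Benjamini-Hochberg adjustment across the 16146 genes, and 0.05 was the limit for a call. Levels are TMM-scaled CPM. The SE was obtained from the F statistic, as the size of the log2 difference over its root. The fit was tested on simulated data.

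Transcripts came from GENCODE 29 on GRCh38 (58437 of 60683 gene IDs matched), with 1 representative per gene (principal isoform, then longest coding sequence) for 3′ UTRs, GC content and length. Strand sequences came from the study's oligonucleotide list. Shares carry Wilson intervals from scipy 1.17.1.

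Named genes are RPL6 and its tested copies, HMGCS1, HIF1A and SREBF2, tested genes within 2 mismatches of a strand, the 10 protein-coding genes with the largest difference in each direction among those called without overlap at an average log2 CPM of at least 1, up to 3 called members per list, and up to 5 called genes with the most seed matches per guide. Other named genes were chosen after their values were seen. Alternatives were DESeq2 1.42.0, upper-quartile scaling, other filters, only the 6 hairpin libraries, corrections for GC content and length (splines), a replicate block, leaving out each library, 8-base sites and, added after seeing the data, coding-sequence sites, 4 mismatches, the seed measure in each library and the site share under each fit. The medians of all lists stand in the plot of gene lists.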

Additional observations from a re-analysis of the deposited data

Results flagged for a closer look

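In 18 of the 62 genes called between the hairpins, shRPL6-2 minus shRPL6-1, all 3 shRPL6-1 and all 3 shRPL6-2 libraries lay on opposite sides of all 3 shCont libraries. Over all 16146 genes tested they did so in 51 (0.316%). The 62 genes were selected by the difference between the hairpins, and in all 62 the hairpin groups did not overlap. The share over all genes is therefore no like background for the 18. The log2 difference was 1.45 for EMC10, 1.23 for FAAP24 and 0.88 for TIMMDC1, which were above shCont with shRPL6-2 and below it with shRPL6-1. The other 15 were above shCont with shRPL6-1 and below it with shRPL6-2. Among them were the matrix proteins FBN1 (−1.33) and EFEMP1 (−0.97), the protease PAPPA (−1.49) and the junction protein CLDN1 (−2.27). The differences were −1.36 for UBASH3B, −1.15 for SPRED1, −0.79 for PHLDA1, −0.85 for CYTH3 and −1.15 for the serotonin receptor HTR1D. They were −1.48 for ENC1, −1.08 for RANBP10, −1.04 for ADH5, −1.01 for the RNA polymerase III subunit POLR3E and −1.20 for the long noncoding RNA HOTAIRM1. For MYOCD, at 0 counts with shRPL6-2, the fitted value of −6.74 depends on the prior count and is no bound. Corrections ended the calls of PHLDA1 (adjusted p = 0.0799 with GC and 0.244 with GC and length), ADH5 (0.0685 with GC) and PAPPA (0.0747 with GC and length).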

How the results depend on the processing

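The counts of 11 higher and 51 lower genes depended on the fit. The lower count was 30 with no filter on low counts. With the GC correction the counts were 42 and 161, with GC and length 39 and 151, with DESeq2 93 and 230, and at an unadjusted p under 0.05 and a log2 difference beyond 1 they were 116 and 232. With 1 library left out they ran from 3 to 43 higher and from 4 to 151 lower. The labels do not say whether library numbers pair the hairpin groups. Correlations of deviations were 0.09, −0.27 and −0.14 for same-numbered hairpin libraries. For differently numbered ones they ran from −0.33 to 0.40, so these values cannot settle the pairing. Under the replicate block the counts were 2 and 3, or 8 and 32 with the GC correction. Of the 62 calls, 58 held with the GC correction, 61 with DESeq2, 56 with only the 6 hairpin libraries and 5 with the block. With 1 library left out the RPL6 difference ran from −0.23 to 0.26. Of its copies, AC009245.1 turned to −0.09 without shRPL6-1 replicate 3 and ran from −0.29 to 0.40 with 1 library left out. AC115223.1 turned to −0.019 with GC and length, and to −0.08 without shRPL6-1 replicate 3, within a range of −0.11 to 0.18 with 1 library left out. RPL6P27 turned to 0.046 with the GC correction, 0.034 with the block and GC, and ran from −0.32 to 0.16 with 1 library left out. None of these was called under any setting. The difference in median for the shRPL6-1 guide moved to 0.23 with 8-base sites and to 0.00046 for matches in the coding sequence alone, and that of the shRPL6-2 guide to −0.12 with GC and length. The share of lower genes with GCTTATT (58.3%) was 51.6% with DESeq2, 53.5% with the GC correction and 54.1% with GC and length. It was 72.4% (21 of 29 genes) with no filter and 75% (24 of 32) with the block and GC. With 1 library left out it ran from 56.3% (81 of 144) to 85.7% (6 of 7). The smallest set was that without shRPL6-2 replicate 1 (3 of 4), so some of these shares rest on few genes. The libraries allow 3 against 3 samples, where an exact permutation test cannot go below 0.1. The causes of these changes were not tested.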

Other observations

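Seed words were also counted in coding sequences of genes that had none in the 3′ UTR, a choice made after seeing the data. The 625 tested genes with GCTTATT in the coding sequence alone had a median log2 difference between the hairpins 0.25 below that of genes with no match in either region. For 3′ UTR matches it was 0.28 below. Both values are uncorrected. The 3′ UTR value was −0.17 with the GC correction and −0.12 with GC and length, and corrected values are not given for the coding sequence. For TTCGCAA, the 401 such genes differed from the rest by 0.00046. Of the 48 genes called lower with shRPL6-2, 5 (10.4%) held GCTTATT in the coding sequence, with or without a 3′ UTR match, against 5.85% of all 12749 genes searched. A match in either region stood in 30 of the 48, 28 of which had it in the 3′ UTR. Over all 12749 genes these counts were 2062 and 1437.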
